A study of Mus musculus with 16 samples.

Results

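Interferon-stimulated genes are the genes that cells switch on when interferons bind their receptors, and 40 of them were followed here in the pituitary glands of female mice. The 40 genes were given by name, and all 40 were among the 17362 genes with a value. Of these, 38 reached a mean of 1 across all 16 mice and were tested among 14345 genes, and the other 2, Oas2 and Mx1, are described by their values alone. The study profiled control mice homozygous for the floxed oestrogen receptor allele (Esr1 fl/fl) and Esr1Nkx2-1Cre mutants, each fed standard diet (SD, labelled chow) or a high-fat diet (HFD) for 17 weeks, to ask which genes accompany the high bone mass of the mutants and its change on HFD. Each of the 4 groups held 4 females, 27 weeks old and of a mixed CD-1;129P2 background, with 1 library per mouse. Controls carry the same floxed allele as the mutants, so the groups differ by the Cre driver. Nkx2-1 is expressed in the ventral hypothalamus, the posterior pituitary lobe, the thyroid and the lung, so that the deletion is confined neither to the pituitary nor to 1 of its cell types, and most hormone cells of the anterior lobe do not descend from Nkx2-1 cells.

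Type I interferons signal through the receptor chains IFNAR1 and IFNAR2 and the kinases JAK1 and TYK2. A complex that holds STAT2 and IRF9 then binds the interferon-stimulated response element (ISRE) in front of genes such as Ifit1 and Isg15. Interferon gamma acts through the shorter GAS element and induces IRF1, and it is known above all for inducing guanylate-binding proteins, the immunoproteasome and antigen presentation. The genes induced code for sensors of viral RNA and DNA, for proteins that block viral RNA and entry, and for the machinery that loads peptides on MHC class I molecules. In tissues without infection most are expressed at a low basal level, which differs between animals.

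Values are normalized expression values per gene and mouse, never negative, made by the authors with kallisto. They look like abundances per transcript length scaled by library, which the sources used here do not spell out. Their sums ran from 908897 to 1080959 per library in 15 mice and reached 1335782 in P357 (mutant, SD). The number of reads per library was not given in the sources used here, so the counting error behind low values is unknown. All 10 pituitary markers (among them Prl, Gh, Pomc and Tshb) were expressed, with summed values between 365405 and 606030. Esr1, the targeted gene, lay between 23.6 and 46.6 in the 8 controls and between 10.02 and 33.4 in the 8 mutants. It was lower in mutants on SD by limma (adjusted p = 0.0409), and on HFD the difference did not pass (adjusted p = 0.696). Libraries P357 and P392 (control, HFD) stood apart in the 5 posterior lobe markers, whose sum was 1.21 in P357 and 2.68 in P392 against 21.4 to 48.8 in the other 14 mice, with Avp and Rax listed at 0 in both. They also stood apart in the 4 melanotroph markers, whose sum was 1666 in P357 and 3484 in P392 against 11369 to 42298 in the other 14. Fits without these 2 mice are given for most genotype differences named below, but not for Ifi44 and Socs1 over both diets or Epsti1 on SD.

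The ISRE core was found in front of a part of these genes, and it is shown here for members whose values are described below. RefSeq promoter windows (GRCm38.p6, 250 bases before to 50 after each gene start) were matched by symbol for 31 of the 40 members. The core, GAAANNGAAA on either strand, stood in 17 of the 31 windows (54.8%) and in 3.44% of all 32851 windows. At least 2 matches, overlapping ones included, were found in 9 of the 31 (29%) and in 0.225% of all windows. The GAS core, TTCNNNGAA, which is its own reverse complement, stood in 9 of the 31 (29%) and in 8.3% of all. Each stretch below has 30 bases on the strand of its gene, with the core in capitals. When the core lies on the opposite strand it reads TTTCNNTTTC. Gbp3, Bst2 and Ifitm3 held 2 cores each (overlapping in Gbp3 and Bst2), of which 1 is printed, and in Ifit1, Ifit3 and Ifit3b both cores are shown.
Ifih1, chr2:62646206-62646235, minus strand: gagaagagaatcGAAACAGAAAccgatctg
Gbp2, chr3:142620594-142620623, plus strand: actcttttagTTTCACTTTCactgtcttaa
Gbp3, chr3:142559989-142560018, plus strand: caggacacagTTTCAGTTTCtatttcccag
Gbp7, chr3:142530273-142530302, plus strand: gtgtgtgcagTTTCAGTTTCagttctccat
Bst2, chr8:71537577-71537606, minus strand: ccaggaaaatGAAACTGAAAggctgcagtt
Ifitm3, chr7:141010706-141010735, minus strand: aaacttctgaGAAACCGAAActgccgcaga
Ifit1 far core, chr19:34640775-34640804, plus strand: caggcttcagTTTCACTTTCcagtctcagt
Ifit1 near core, chr19:34640794-34640823, plus strand: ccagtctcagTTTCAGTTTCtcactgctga
Ifit3 far core, chr19:34583363-34583392, plus strand: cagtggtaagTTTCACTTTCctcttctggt
Ifit3 near core, chr19:34583397-34583426, plus strand: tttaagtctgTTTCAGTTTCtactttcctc
Ifit3b far core, chr19:34607759-34607788, plus strand: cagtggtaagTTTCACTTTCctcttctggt
Ifit3b near core, chr19:34607793-34607822, plus strand: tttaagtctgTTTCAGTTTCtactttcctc
The core began 59 bases before the gene start in Gbp2, 45 in Gbp3 and 53 in Gbp7, while that of Ifih1 began at base 33 and the printed core of Ifitm3 at base 20 of the transcript. Both stretches were identical in all 30 bases between Ifit3 and Ifit3b, neighbouring copies whose transcripts share 1700 bp at 97.8% identity, so that their reads may have been split between them. Windows of Psmb8, Psmb9 and Tap1 held no such letters, and that of Psmb8 held a GAS core. A match describes letters in a window and not a bound site.

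Levels were low. The mean over the 16 mice was under 5 in 16 members, from 5 to 50 in 22 and above 50 in 2, with a median of 7.62 against 13.5 over all tested genes. No member was at 0 in any mouse. Ifi27, which codes for a small mitochondrial protein, had the highest mean (280.1), followed by the membrane protein gene Ifitm3 (96.7), whose product blocks the entry of enveloped viruses. Lgals3bp, a secreted glycoprotein gene, averaged 36.8. Among the sensors of viral nucleic acid the highest mean was that of Ddx58 (13.7), the gene for RIG-I, and among transcription factors that of Irf1 (26.1). The antiviral IFIT genes, whose products bind foreign RNA ends, were near the bottom, with Ifit3b highest at 2.06. Oasl2 led the OAS and PKR genes (15.7), which sense double-stranded RNA and stop translation, and Gbp3 led the MX and GBP GTPases (13.1). Trim25, a ubiquitin ligase that activates RIG-I, led the ISG15 and ligase genes (13.3), Parp9 the PARP genes (7.72) and Psmb8, an immunoproteasome subunit, the antigen processing genes (18.2). Oas2 ran from 0.153 to 1.28 and Mx1 from 0.451 to 1.92.

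**Figure D1:**
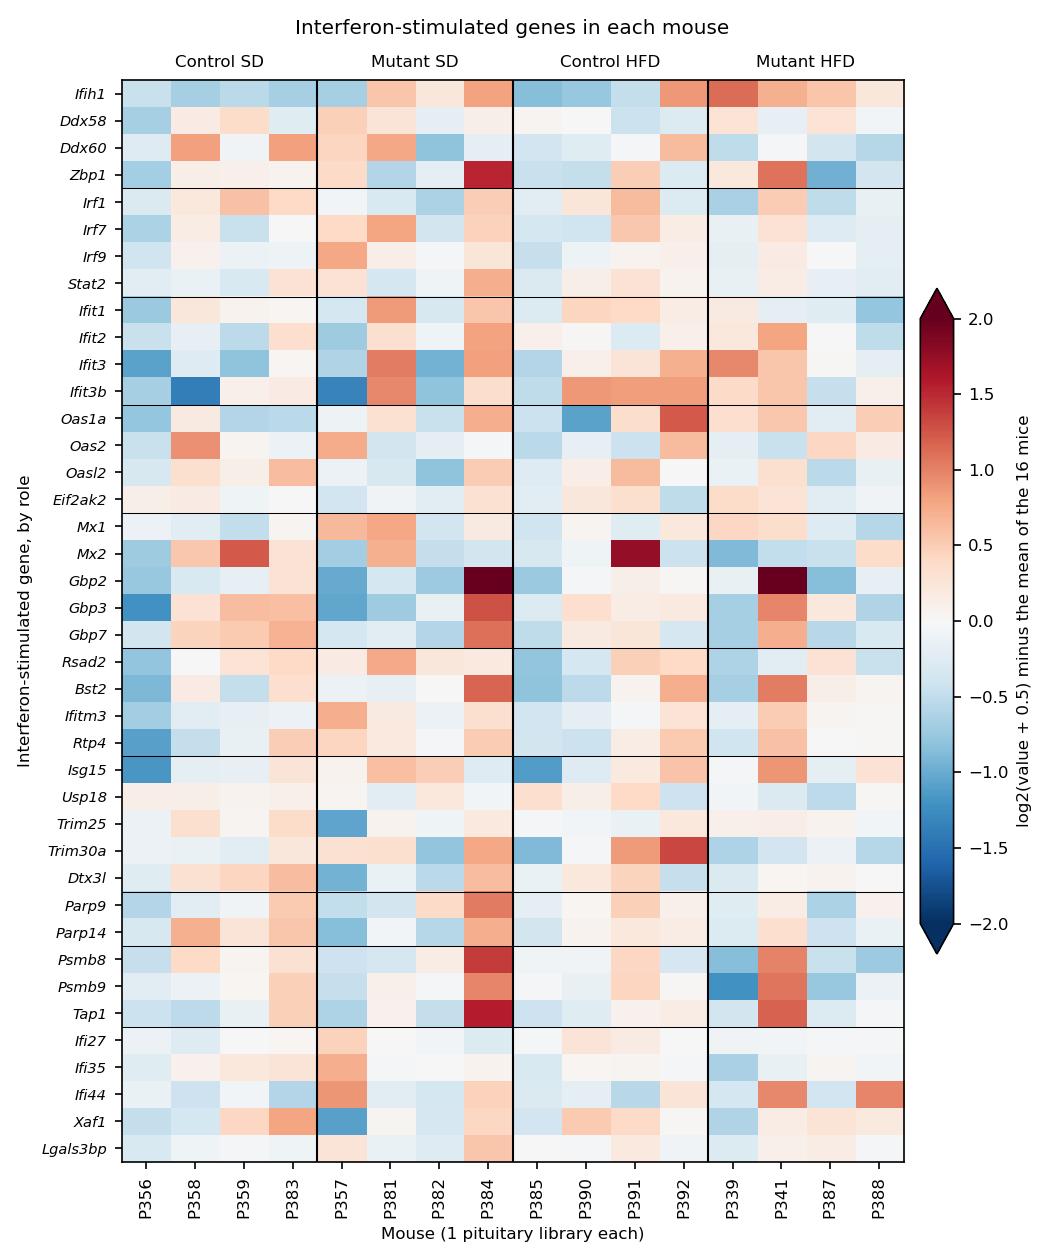
Each row is 1 of the 40 genes, ordered by role between thin lines, each column 1 mouse, and the colour is log2(value + 0.5) minus the mean of the 16 mice. P384 and P341 are red in Gbp2, Psmb8, Psmb9, Tap1 and Bst2, P356 is blue in most rows, and Ifih1 is blue in 7 of 8 controls and red in 7 of 8 mutants.

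The spread between mice of the same group was measured as the pooled within-group SD of log2(value + 0.5). Its median was 0.479 over the 38 members and 0.260 over all tested genes, and 34 of the 38 lay above the latter. Low values vary more, and the members are less abundant than the typical gene. In 20 bins of mean level, 35 of the 38 had a larger SD than the median gene of their own bin, and 9 lay above its 90th percentile. The bin medians that belong to the members had a median of 0.282. Without P384 and P341, the 2 mutants described below, the median of the members was 0.3801 against 0.263 for all tested genes, and without P357 and P392 it was 0.476 against 0.212. The members spread most in mutants on SD, with a median SD of 0.607 against 0.284 for all tested genes. The values were 0.392 against 0.212 in controls on SD, 0.372 against 0.234 in controls on HFD and 0.383 against 0.176 in mutants on HFD, so that the members varied more than the typical gene in each of the 4 groups.

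Gbp2, a guanylate-binding protein gene typical of the response to interferon gamma, had the largest pooled SD (1.11), larger than that of 98.5% of all tested genes. It was followed by Gbp3 (0.786), Mx2 (0.769), Ifit3b (0.758) and Zbp1 (0.704), the gene of a sensor of Z-form nucleic acid. At the other end stood Ifi27 (0.181), Lgals3bp (0.225), Usp18 (0.240), the gene of the protease that removes ISG15 and dampens the receptor, Irf9 (0.255) and Ifi35 (0.275). Ifi27 was 231, 255, 280 and 286 in controls on SD and 265, 267, 270 and 275 in mutants on HFD. It was 272, 280, 310 and 334 in controls on HFD, and among mutants on SD 230, 268 and 277 with 381.2 in P357. Ifi27, the most abundant member, was thus the steadiest, with a pooled SD above that of 23.2% of tested genes.

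**Figure D2:**
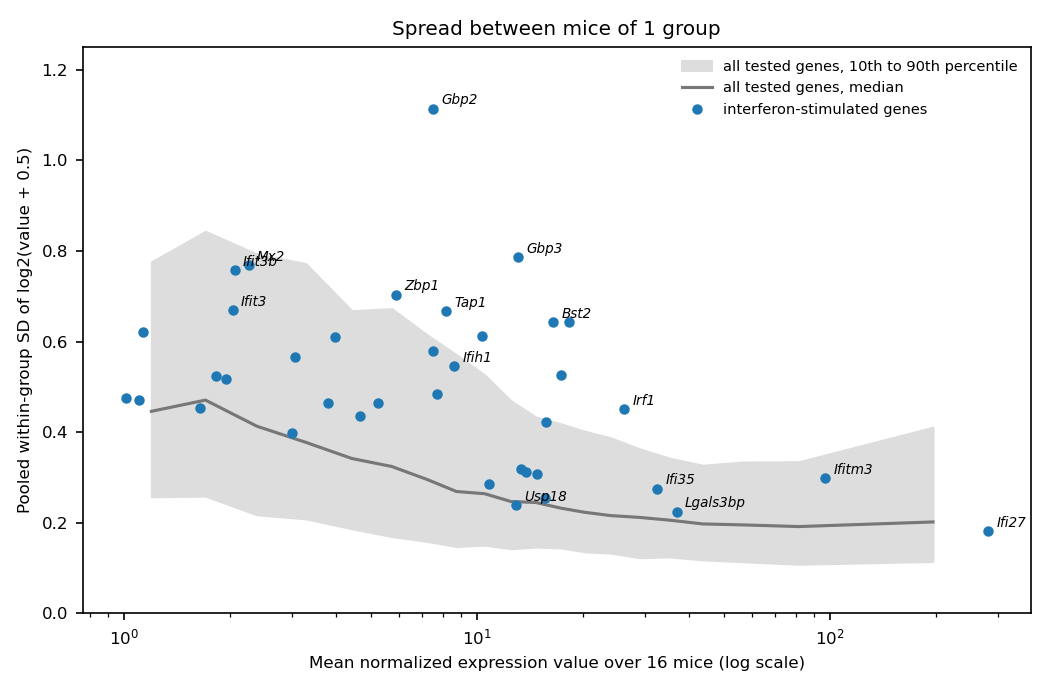
The x axis is the mean value over 16 mice (log scale), the y axis the pooled within-group SD of log2(value + 0.5), points are the 38 tested members, and the line and band give the median and the 10th to 90th percentile of all tested genes in 20 bins of mean. Gbp2 (1.11) stands highest, and Ifi27 (0.181) at the lower right.

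The variation was shared across members within a mouse. In mutants on SD, P384 was the highest of its group in 23 of the 38 members (60.5%) and in 28.3% of all tested genes. In mutants on HFD, P341 was the highest in 23 (60.5%, against 21.2%). In controls on SD, P383 was the highest in 22 (57.9%, against 24%), and P356 the lowest in 28 (73.7%, against 34.3%). In controls on HFD, P391 was the highest in 18 (47.4%, against 23.9%) and P385 the lowest in 22 (57.9%, against 26.8%). In mutants on SD, P382 was the lowest in 14 (36.8%, against 16.5%), and in mutants on HFD, P339 was the lowest in 18 (47.4%, against 26.9%). The members share libraries and regulators, so these counts are descriptions and not independent observations.

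The size of these shifts was given by the median deviation of the 38 members from the group mean on the log2 scale. It was 0.575 in P384, 0.323 in P341, 0.266 in P383 and 0.247 in P391. It was -0.498 in P356, -0.341 in P385, -0.316 in P382 and -0.256 in P357. Over all tested genes the same median stayed between -0.063 and 0.0382 in the 16 mice. P357, with the highest library sum, was the lowest of its group in 17 members (44.7%) and in 44.1% of all tested genes, so that its low ranks were not particular to these genes.

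**Figure D3:**
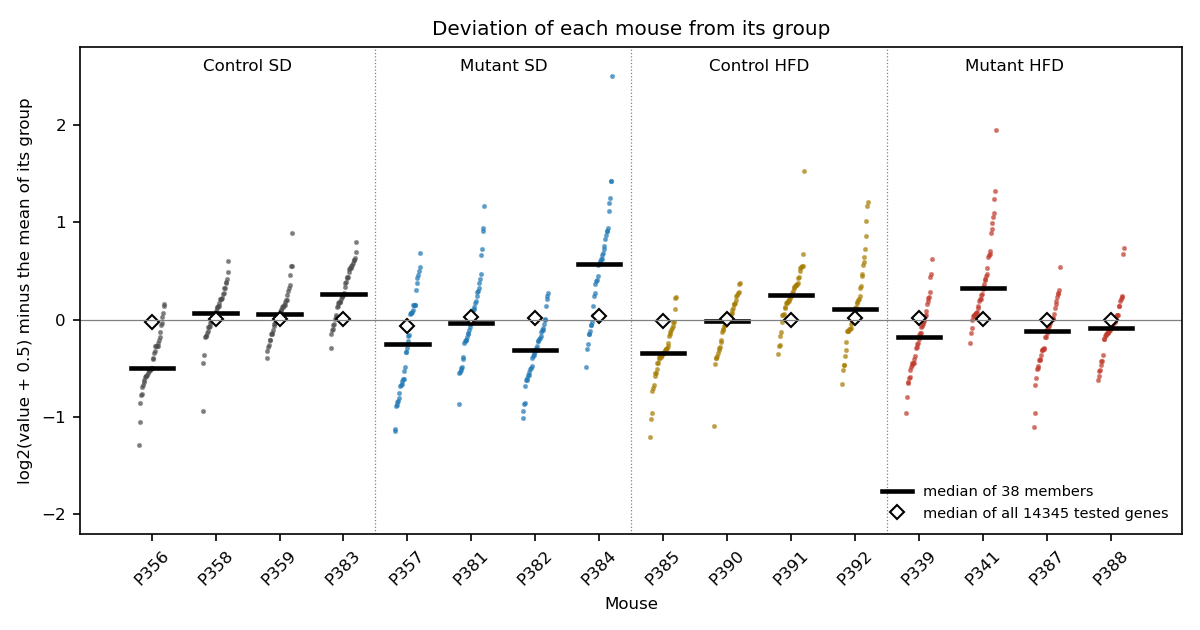
For each mouse, points are the deviations of the 38 tested members from the group mean of log2(value + 0.5), the bar is their median and the diamond the median of all 14345 tested genes. Bars run from -0.498 (P356) to 0.575 (P384), while diamonds stay near 0.

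Mice P384 and P341 were chosen for description after their values were seen. In 17 members both were the highest of their own group. Lists of 23 out of 38 members share many genes by their length alone, so the count of 17 is a description and no measure of likeness. The 17 include 3 of the 4 tested MX and GBP genes (Gbp2, Gbp3 and Gbp7), all 3 antigen processing genes (Psmb8, Psmb9 and Tap1) and both PARP genes (Parp9 and Parp14), of the ADP-ribosyltransferase family. The rest of the 17 are Oas1a, Oasl2, Stat2, Rtp4, Ifit2, Bst2, Zbp1, Irf1 and Trim25.

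Gbp2 was 35.2 in P384 against 2.36, 2.97 and 4.01 in the other mutants on SD, and 26.1 in P341 against 2.71, 4.64 and 4.73 in the other mutants on HFD. Controls ran from 2.92 to 6.53. Both mice stood several-fold above the remaining 14, which overlapped.

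Tap1, a subunit of the pump that carries peptides to MHC class I, was 22.7 in P384 against 4.61, 5.12 and 7.86 on SD, and 17.2 in P341 against 5.58, 5.97 and 7.18 on HFD. Psmb8 was 44.5 in P384 against 12.4, 13.0 and 18.6, and 33.4 in P341 against 9.01, 9.89 and 12.1. Psmb9, the neighbouring subunit gene, was 19.3 in P384 against 6.80, 9.27 and 10.4, and 20.6 in P341 against 3.86, 5.48 and 8.80. In these 3 genes no other mouse reached the lower of the 2 values. Exons of Tap1 and Psmb9 overlap on opposite strands over 212 bp, and the use of strand in counting is not given in the sources used here.

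Bst2, which codes for tetherin, was 34.2 in P384 against 13.3, 13.8 and 15.03, and 31.0 in P341 against 9.29, 15.7 and 16.4. Among controls it reached 25.2 in P392 and was 7.86 to 19.1 in the others. Zbp1 was 16.1 in P384 and 11.7 in P341, with 2.43 to 7.56 in the other 14 mice. Ifit1, the classical target of type I interferon, was not the highest of its group in either mouse. It was 2.51 in P384, above the controls (at most 2.25), and 1.29 in P341, and the highest mouse was P381 (mutant, SD) at 3.21. Its relative Ifit2 was the highest of its group in both, at 2.19 in P384 and 2.16 in P341.

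Other interferon-induced genes outside the 40 moved in the same mice. Of 46 such genes tested, P384 was the highest of its group in 29, against 28.3% of all tested genes, and P341 in 34, against 21.2%. Cxcl9, a chemokine induced by interferon gamma, was 26.6 in P384 and 9.11 in P341 against at most 1.96 in the rest. B2m, the light chain of MHC class I, was 558 in P384 and 455 in P341 and reached 382.4 in P383. The 9 interferon genes sought (Ifnb1, Ifng and others) had no value and were not analysed here.

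Markers of macrophages stood high in the same 2 mice, and those of other immune cells did so only in part. The summed value of the 15 macrophage markers, none of them at 0 in any mouse, was 386 in P384 and 283 in P341, where it was 71.2 to 229 in controls and 133 to 186 in the other mutants. P384 was the highest of its group in 13 of the 15 and P341 in 14. Among controls, P392 was the highest in 12, while P383 and P391, the highest in most members, were so in 5 and 3. Markers of T and NK cells (9 of 11 listed) summed to 33.7 in P384 and 16.5 in P341 against 5.92 to 15.1 elsewhere. P384 and P341 were the 2 highest mice in Cd3e, Cd3g, Cd8a, Nkg7, Prf1 and Gzma, each with a mean under 1. Cd3g was 4.55 in P384 and 1.37 in P341 against at most 0.467 elsewhere. The gap was narrow in Gzma, at 1.60 in P384 and 1.76 in P341 with 1.55 in P385. In Cd4 and Cd8b1 P384 was the highest, while P341 lay below P357. Cd3d, the most abundant of these markers, did not set the 2 mice apart, at 6.22 in P384 and 3.99 in P341 with 9.18 in P387. Plasmacytoid dendritic cell markers summed highest in P356 (13.1), where Klk1 alone was 11.5, with sums of 9.60 in P384 and 8.47 in P341. The other markers listed peaked in P384 and not in P341. Siglech was 5.05 in P384 and 2.85 in P341 against at most 3.04 elsewhere, and Ccr9 was 0.942 and 0.522 against at most 0.667. Neutrophil markers summed highest in P339 (60.5), with 2.84 in P384 and 8.20 in P341. Of the 4 B cell markers listed, Ighm, an immunoglobulin heavy chain gene, was 67.3 in P384 and 14.98 in P341 against 1.43 to 7.42 elsewhere. The other 3 were low and did not set both mice apart: Cd79a was 1.24 in P384 and 0.502 in P341 against 0.42 to 1.14 elsewhere, and Cd79b was 2.51 in P384 and 1.53 in P341 with 2.91 in P358. Their part in the high values of these 2 mice was not tested, and in bulk tissue more cells of a type and more RNA per cell cannot be told apart. Among the mice low in many members, P356 (82.1) and P385 (71.2) had the lowest macrophage sums of their groups, whereas P339 (180.9) did not, with 133.4 in P388. In mutants on SD the sums of P382 (148.9), P381 (149.5) and P357 (173.5) lay close together.

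**Figure D4:**
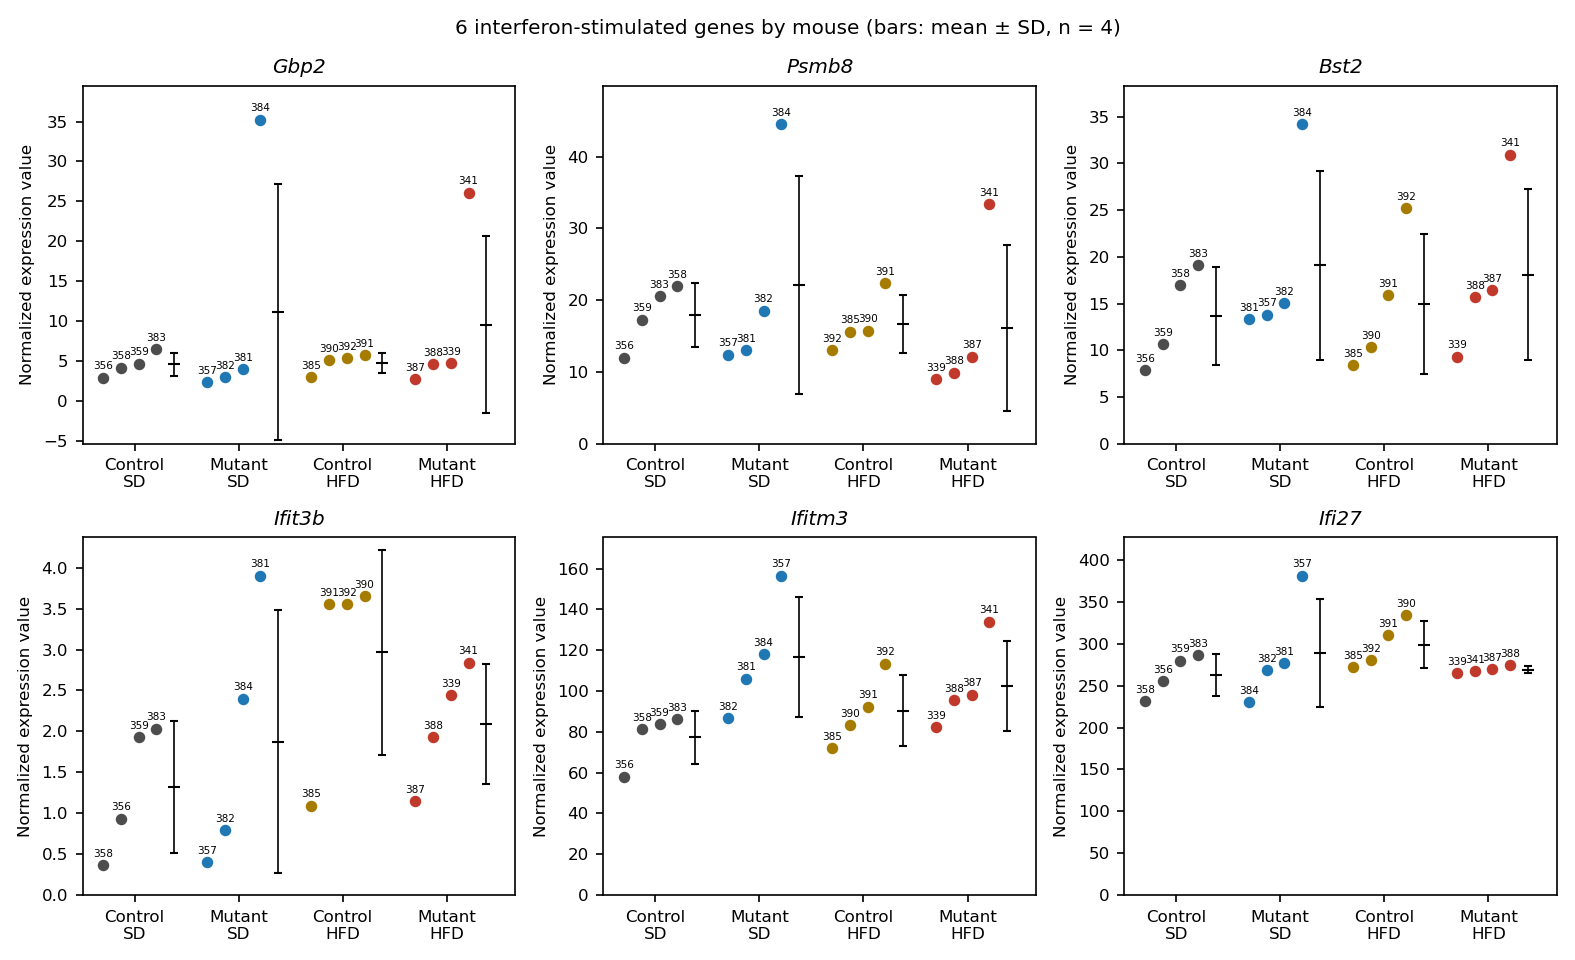
Panels show 6 members, with 1 point per mouse labelled by its animal number, the normalized value on the y axis from 0 and the group mean ± SD (n = 4) beside it (in Gbp2 the bar reaches below 0). P384 and P341 stand apart in Gbp2, Psmb8 and Bst2, P357 is highest in Ifitm3 and Ifi27, and Ifit3b is high in 3 of 4 controls on HFD.

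Between genotypes, 1 member passed the test. Over both diets, Ifih1 was higher in mutants by 0.88 on the log2 scale (SE 0.25, adjusted p = 0.0453 by limma with Benjamini-Hochberg adjustment over 14345 genes), 1 of 38 members where 6.54% of all tested genes passed. On SD, 0 of 38 members passed where 1.84% of all genes did, and on HFD 0 where 0% did. At an unadjusted p under 0.05 the members were 3 on SD (Ifitm3, Irf9 and Ifih1), against 19.9% of all genes, 1 on HFD (Ifih1), against 10.2%, and 2 over both diets (Ifih1 and Ifitm3), against 22.7%. At this unadjusted threshold the share of members was below the background in each genotype comparison.

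Ifih1 codes for MDA5, a cytosolic sensor of long double-stranded RNA. It was 4.65, 4.70, 5.17 and 5.54 in controls on SD. In mutants on SD it was 9.05, 11.6 and 13.8, with 4.69 in P357. In controls on HFD it was 4.05, 4.33 and 5.41, with 14.4 in P392, and in mutants on HFD 9.06, 11.48, 12.9 and 17.3. Thus 7 controls lay at 5.54 or below and 7 mutants at 9.05 or above, and the 2 mice that fell among the other genotype were the 2 libraries low in posterior lobe and melanotroph markers. The difference between genotypes was 0.81 (SE 0.35, adjusted p = 0.218) on SD and 0.95 (SE 0.35, adjusted p = 0.357) on HFD by limma.

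Without P357 and P392, Ifih1 was higher in mutants by 1.10 on SD (adjusted p = 0.00513, limma), by 1.344 on HFD (adjusted p = 0.00098) and by 1.22 over both diets (adjusted p = 5.46e-05). The shares of all genes that passed in this fit were 6.7%, 7.42% and 18.6%, so that the background rose too. Genotypes then did not overlap over both diets in 1 of 38 members, Ifih1, and in 6.13% of all genes, where with all 16 mice it was 0 members and 0.432%. For Ifih1 this gap was fixed in advance, since P357 and P392 were the mice that lay among the other genotype. The smaller adjusted p of Ifih1 in this fit follows from the same removal and is no separate support. Usp18 was the other member that passed without these mice, lower in mutants by 0.50 on HFD (adjusted p = 0.0455) and by 0.31 over both diets (adjusted p = 0.0425). Its values were 13.3 to 16.9 in the 7 controls kept and 8.71 to 14.8 in the 7 mutants, which overlap.

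The call for Ifih1 over both diets rests on few margins. It was lost when any 1 of 12 of the mice was left out, with differences between 0.78 and 0.90 and adjusted p between 0.0733 and 0.104, and it held without P356, P357, P388 or P392. Leaving out P392 alone, the control that lay among the mutants, gave 1.07 (adjusted p = 0.0017, limma) and brought a call on HFD (1.344, adjusted p = 0.0123). Without P384 and P341 together the difference over both diets was 0.77 (adjusted p = 0.14) and did not pass.

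Summed endothelial and macrophage markers were also higher in most mutants than in most controls, with P392 high. Unlike Ifih1, both sums lay among those of the other mutants in P357. The 10 endothelial markers summed to 73.3 to 102 in the 7 controls other than P392, to 178 in P392 and to 128 to 158 in mutants, P357 included at 145. The macrophage sum was 71.2 to 110 in 6 controls, 170 in P391, 229 in P392 and 133 to 386 in mutants, P357 included at 173.5. Posterior lobe markers, low in P357 and P392, were 21.4 to 48.8 in the others with no gap between genotypes. Their part in the result was not tested.

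**Figure D5:**
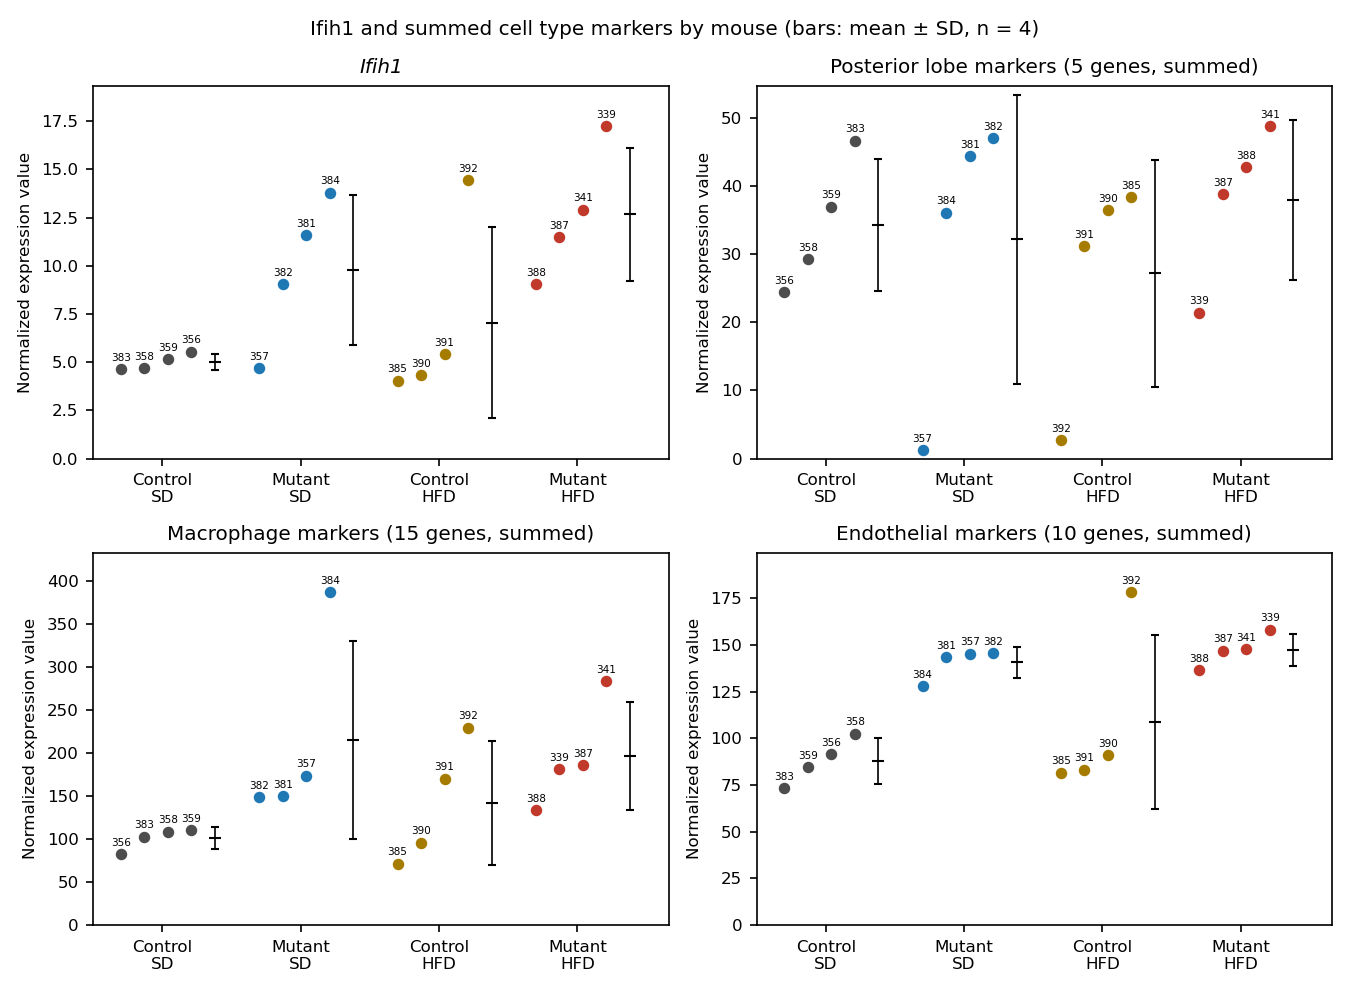
Panels give Ifih1 and the summed markers of the posterior lobe, macrophages and endothelial cells, with 1 point per mouse labelled by its animal number and the group mean ± SD (n = 4). Ifih1 in P357 (4.69) and P392 (14.4) falls among the other genotype, both lie near 0 in the posterior lobe panel, and P392 alone crosses in the endothelial panel.

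Ifitm3 was 58.1, 81.1, 83.8 and 86.4 in controls on SD and 86.6, 106, 118 and 156 in mutants on SD. Every mutant was above every control, though P382 by a narrow margin. The difference of 0.58 (SE 0.19) did not pass by limma (adjusted p = 0.124), and the exact two-sided permutation test gave p = 0.0286, the smallest that 4 against 4 mice allow, in 1 of 160 such tests over members and comparisons. Without P357 and P392 the difference was 0.43 (adjusted p = 0.165, limma). Groups did not overlap in this 1 member on SD, against 10.6% of all genes, and in 0 on HFD, against 5.3%. On HFD Ifitm3 was 72.1, 83.4, 92.3 and 113 in controls and 82.3, 95.4, 98.2 and 134 in mutants, which overlap. In the list of other interferon-induced genes the neighbouring Ifitm2, also a gene of viral entry, was higher in mutants over both diets by 0.39 (adjusted p = 0.0302, limma) and without P357 and P392 by 0.40 (adjusted p = 0.00265).

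Irf9, a DNA-binding partner of STAT2, was 11.4, 14.1, 14.2 and 16.2 in controls on SD and 14.8, 16.7, 18.2 and 26.5 in mutants on SD, the last in P357. These groups overlap, and the difference of 0.41 (SE 0.17) did not pass (adjusted p = 0.211, limma), and without P357 and P392 it was 0.24 (adjusted p = 0.351). On HFD the members nearest the threshold after Ifih1 were Usp18 (-0.32, adjusted p = 0.541) and Trim30a (-0.74, adjusted p = 0.554), the gene of a ubiquitin ligase that dampens innate signalling, whose value reached 9.79 in P392. Without P357 and P392 the difference in Trim30a was -0.40 (adjusted p = 0.593, limma). Ifi44 differed by 0.49 over both diets (adjusted p = 0.255).

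The direction over the list was uneven. On SD, 26 of 38 members had a higher mean in mutants, against 49% of all tested genes, with a median difference of 0.23 against -0.01 for all. On HFD 16 of 38 had, against 53.9%, with a median of -0.08 against 0.02. These medians rest on single mice: without P384 the median on SD was 0.02, and on HFD it was 0.03 without P339 and 0.01 without P391. Both sets of controls and mutants are separate mice. The interaction of genotype and diet was called in 0 of 38 members and in 0% of all genes. At an unadjusted p under 0.05 it had 0 members and 4.2% of all genes, and the members nearest to it were Trim30a (-0.94, adjusted p = 0.924 by limma), Ifit1 (-0.72) and Irf7 (-0.61), the gene of the master factor of type I interferon induction.

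Between diets, limma called 0 members in controls and 0 in mutants, where 0% of all genes passed in each, and 0 over both genotypes, where 0.00697% passed. At an unadjusted p under 0.05 the counts were 0 members in controls against 4.13% of all genes, 1 in mutants against 5%, and 0 over both genotypes against 5.11%. Groups overlapped between diets in every member in both genotypes, and did not overlap in 2.61% of all genes in controls and 3.31% in mutants. Tests made on simulated data of this size recovered 66.5% of genes changed by 1 on the log2 scale between genotypes on SD. Members spread more than the typical gene and no diet change was simulated, so changes of 1 or smaller could be missed in them.

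Ifi35, which codes for a partner of the protein NMI, was the member at an unadjusted p under 0.05 between diets. It was 31.0, 31.6, 33.4 and 52.8 in mutants on SD and 20.1, 28.6, 30.5 and 33.2 on HFD, a difference of -0.39 on the log2 scale (adjusted p = 0.813, limma). The highest value belonged to P357, and without it the difference was -0.21. Ifit3b was 0.365, 0.933, 1.93 and 2.03 in controls on SD and 1.09, 3.56, 3.56 and 3.65 in controls on HFD, which overlap (0.96, SE 0.49, adjusted p = 0.998). Its copy Ifit3 was 0.585 to 1.85 on SD and 1.03 to 3.23 on HFD (0.64, adjusted p = 0.998).

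Of the other pathway genes, 79 of 90 sought were listed and 73 tested. Of 10 receptor and kinase genes, 1 passed between genotypes over both diets, where 6.54% of all genes did. This was Il10rb, a chain shared by the receptors of interferon lambda and interleukin 10, higher in mutants by 0.30 (adjusted p = 0.0378, limma) and without P357 and P392 by 0.34 (adjusted p = 0.0126). It was 21.9, 21.98, 25.9 and 27.9 in controls on SD and 29.95, 31.6, 31.8 and 37.3 in mutants on SD. On HFD it was 25.4 to 32.7 in controls and 30.4 to 36.7 in mutants, which overlap. Jak1 had the highest mean of this group (38.8), with 33.3 to 43.9 over all mice.

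Of 46 other interferon-induced genes, 2 passed over both diets (Ifitm2 and Epsti1), against 6.54% of all genes, and 1 on SD (Epsti1), against 1.84%. Epsti1, another interferon-responsive gene, was 0.580 to 0.992 in controls on SD and 2.02 to 4.38 in mutants on SD, higher by 1.39 (SE 0.31, adjusted p = 0.0364) and over both diets by 0.89 (adjusted p = 0.0262). Its highest values were those of P384 (4.38) and P357 (3.55), and on HFD it was 2.71 in P392 against 0.822 to 1.46 in the other controls and 1.23, 1.65, 1.99 and 3.18 in mutants, which overlap. Without P357 and P392 the difference over both diets was 1.00 (adjusted p = 0.00456, limma), and without P384 and P341 it was 0.71 (adjusted p = 0.102). Of 16 fits that each left out 1 mouse, Epsti1 passed over both diets in 9, Ifitm2 in 7 and Il10rb in 6, and without P384 and P341 together none of the 3 passed (adjusted p = 0.0651 for Ifitm2 and 0.0929 for Il10rb). Ly6e had the highest mean of this group (393). Of 11 sensing adaptors and regulators, Irf3 being the most abundant (51.8), and of 6 negative regulators, led by Ptpn11 (43.1), 0 passed in any of the 7 comparisons by limma.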

How the data were processed

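Pituitary RNA of 16 female mice was sequenced on a NovaSeq from NEBNext Ultra II libraries, 1 per mouse. Reads were assigned by the authors to genes with kallisto (gene mode, mm10), and sleuth was their test, per the paper's methods and the submitters' processing notes. Versions, annotation release, filter and strand are not given in the sources used here. The deposited values are a normalized signal per gene and mouse, not counts, so a planned count test was replaced by the limma branch of the plan. Depth per sample is unknown, and no interval on counts is given.

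Symbols were paired for 17351 genes. Genes with a mean of at least 1 entered limma 3.58.1 (R 4.3.3) as log2(value + 0.5), 1 mean per group over 16 mice, eBayes with trend, Benjamini-Hochberg adjustment within each of 7 comparisons and a threshold of 0.05. Fold changes on this scale understate those of low genes. Exact permutation tests used scipy 1.17.1. On simulated data made from 14345 genes (mutant against control on SD), 66.5% of genes changed by 1 and 95% of those changed by 2 were recovered, with 2.92% and 5.47% of calls false. Shared sequence was searched with BLAST 2.17.0 (90% identity, 100 bp) in GENCODE M21 transcripts, and Python 3.11.15 and matplotlib 3.10.9 drew the figures.

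The members and gene lists were chosen with earlier results of these data known. Genes named are members that passed a test, the highest of each role, the 5 largest and 5 smallest spreads, the 3 smallest p per comparison, members with a mouse far from its group, pathway genes that passed or lead their group, and Esr1. Cxcl9, B2m, Socs1, Ifit1, Psmb9 and others shown for P384 and P341 were chosen after their values were seen. The labels give animal numbers and no shared replicate numbers, and p-values weigh a difference between groups against the spread between mice. A withheld item is not reported here.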

Additional observations from a re-analysis of the deposited data

Results flagged for a closer look

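In 14 of 160 sets of 4 mice (40 members in 4 groups) 1 mouse was set apart from the remaining 3 by Dixon's ratio of gap to range, taken on untransformed values. A nominal rate of 1 in 20 would give about 8, but that rate holds for normal and independent values. Members vary together within a mouse and the share over all genes was not computed, so the count is a description. In mutants on SD, P384 stood high in Gbp2 (35.2), Gbp7 (15.4) and Bst2 (34.2), P381 in Mx2 (3.38) and Rsad2 (1.93), and P357 in Ifi35 (52.8). In mutants on HFD, P341 stood high in Gbp2 (26.1), Psmb8 (33.4) and Tap1 (17.2). In controls on HFD, P392 stood high in Ifih1 (14.4), P391 in Zbp1 (7.56) and Mx2 (7.54), and P385 low in Ifit3b (1.09). In controls on SD, P356 stood low in Zbp1 (3.07). Mx2 shares 921 bp at 94.8% identity with Mx1, so its reads are uncertain, as are those of Ifit3b. No member moved in opposite directions without overlap between diets or genotypes.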

How the results depend on the processing

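Depth is unknown, and 14 of the 38 tested members have a mean under 5, where counting error is largest. Counts of called members stayed at 0 for both diet comparisons, diet over both genotypes and the interaction under every alternative run. For genotype on SD the count was 1 (Ifih1) without P357 and P392 together and 0 in every fit without 1 mouse. For genotype on HFD it was 2 (Ifih1 and Usp18) without P357 and P392, and 0 to 1 without 1 mouse each, the 1 being Ifih1 without P392. For genotype over both diets, with 1 member called, it was 0 with no filter on low values (Ifih1 at adjusted p = 0.0506), 0 with eBayes without trend (0.0517), 0 with lower or upper animal numbers as covariate (0.0528), 0 without P384 and P341, 2 without P357 and P392, and 0 to 2 without 1 mouse each, the 2 being Ifih1 and Ifitm3 without P392. The cause was not tested. Members whose genotypes did not overlap over both diets rose from 0 to 1 without P357 and P392, the 2 mice whose Ifih1 lay among the other genotype. Leaving out P384 and P341, the last count, the spread without P357 and P392 and the refits of pathway genes were chosen after seeing the data. P357 and P392 stood apart in marker values of these same data, so fits without them are not independent of the data. Of 552 refits of 22 single results, 530 kept their direction and side of the threshold, 6 newly passed, 16 no longer passed (all Ifih1 over both diets) and 0 changed direction. The median within-group SD of the members was 0.432 to 0.574 under 2 other pseudocounts and median scaling and 0.471 to 0.499 without 1 mouse each, at least 1.76 times that of all tested genes, and 1.44 times (0.3801) without P384 and P341. It was not rerun under the other filters. Without 1 mouse each, all genes called ranged from 33 to 826 for genotype on SD, from 0 to 653 on HFD and from 441 to 1931 over both diets. With the filter at a mean of 5, members under it had no value. No paired analysis was possible because the labels give no replicate numbers shared between groups.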

Other observations

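Socs1, the gene of a feedback inhibitor of JAK kinases, spread widely among the controls. It was 4.46, 5.21, 5.39, 5.62 and 7.34 in P383, P359, P390, P358 and P391, and 17.3, 23.4 and 28.7 in P385, P392 and P356, while the 8 mutants ran from 15.1 to 25.0. P356 and P385, high here, were the mice lowest in most members within their groups. P341 and P384, the mice highest in most members within theirs, were at 24.7 and 20.1. The difference between genotypes over both diets was 1.03 on the log2 scale (SE 0.35, adjusted p = 0.0885, limma) and did not pass. Socs1 was chosen after its values were seen.

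Ifi44, the gene of a cytoplasmic protein induced by type I interferon, was 3.70 in P341 and 3.75 in P388 against 1.16 and 1.19 in the other mutants on HFD, and 3.48 in P357 and 2.49 in P384 against 1.203 and 1.37 on SD. In controls it ran from 0.937 to 2.08.

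The neutrophil markers S100a8 and S100a9 were 25.0 and 35.3 in P339 (mutant, HFD) against at most 4.77 and 5.99 in the other 15 mice. P339 was the lowest of its group in 18 of the 38 members (47.4%) and in 26.9% of all tested genes.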
